A study of Homo sapiens with 13 samples.

Results

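In MOLM-13 cells, 302 stretches of intergenic DNA carried both a PTBP1 peak and a RUNX1 peak. Peaks of both lists that overlapped by at least 1 base were merged, which gave 12367 regions, and 4550 of them (36.8%) held peaks of both targets and were called shared. A shared region was intergenic when it overlapped no GENCODE v44 gene of any type and lay more than 1 kb from every annotated transcription start site (TSS). Intergenic regions were thus 6.64% of the shared regions, and shared regions were 20.1% of the 1503 intergenic ones. The members were selected on the presence of both peaks, so their fold enrichments, widths and summit distances are given as a description and were not tested. They were compared with 568 PTBP1-only and 633 RUNX1-only intergenic regions, and with the shared regions at a TSS (3239) and in gene bodies (1009).

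All 13 libraries came from MOLM-13, a human line established from acute myeloid leukemia, with no treatment named. CUT&Tag used an antibody against PTBP1 (2 libraries), RUNX1 (2 libraries) or IgG (1 library), and CUT&RUN used PTBP1, RUNX1, H3K27me3 or IgG (2 libraries each). In CUT&Tag an antibody tethers a transposase that inserts adapters near the bound protein, while in CUT&RUN a tethered nuclease cuts there. The values below come from a single peak list per target, so replicate error is unknown, and the intervals reflect counting error alone. The lists name the target but no replicate, and 1 cell line cannot stand for other leukemias.

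RUNX1, a transcription factor of blood development, contacts DNA with its Runt domain in a complex with CBFB, and much of its binding lies at enhancers away from promoters. Its short recognition word is TGTGGT, or TGCGGT, read on either strand. PTBP1 is a splicing regulator whose RNA-recognition motifs bind pyrimidine-rich RNA. In these assays a protein need not touch DNA itself to give a peak, since the antibody marks the chromatin around it.

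The sequence around the strongest summit shows the range of the members. The windows below are the hg38 plus strand 50 bases either side of the RUNX1 summit, except for NANOS3, where the PTBP1 summit is shown. Capitals mark each RUNX word. They were chosen from the members named by the rule to show windows with the word and windows without it.
HOXA7 (chr7:27161133-27161233): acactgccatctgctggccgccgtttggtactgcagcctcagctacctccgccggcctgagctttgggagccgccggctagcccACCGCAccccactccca
SRSF3 (chr6:36624029-36624129): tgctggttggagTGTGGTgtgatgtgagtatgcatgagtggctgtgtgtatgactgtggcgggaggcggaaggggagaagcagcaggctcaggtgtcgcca
SORL1 (chr11:121417266-121417366): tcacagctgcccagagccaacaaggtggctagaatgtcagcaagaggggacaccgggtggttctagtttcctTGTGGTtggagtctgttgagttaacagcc
NANOS3 (chr19:13846748-13846848): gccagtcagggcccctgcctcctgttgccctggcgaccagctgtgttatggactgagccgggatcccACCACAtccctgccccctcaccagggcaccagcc
CSF3R (chr1:36486646-36486746): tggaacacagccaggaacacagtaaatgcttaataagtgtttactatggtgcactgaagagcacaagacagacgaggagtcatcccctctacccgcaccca
GFI1 (chr1:92460212-92460312): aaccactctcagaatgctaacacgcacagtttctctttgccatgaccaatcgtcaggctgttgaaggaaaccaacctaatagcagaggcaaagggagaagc
UACA (chr15:70492757-70492857): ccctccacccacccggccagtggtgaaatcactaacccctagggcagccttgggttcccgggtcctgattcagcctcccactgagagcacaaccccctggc

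Fold enrichment is the fragment pileup at a summit over the background, each with 1 added. The PTBP1 fold enrichment of the members had a median of 12.8 (quartiles 10.5 and 18.02, range 4.47 to 200.6). The RUNX1 fold enrichment had a median of 17.3 (quartiles 11.3 and 30.1, range 4.15 to 182.7). RUNX1 was the higher value in 197 members (65.2%). The backgrounds of the lists differed, at a usual 0.7202 fragments for PTBP1 and 0.330 for RUNX1, and in fragments the targets were nearly even, with more PTBP1 than RUNX1 fragments at 156 members (51.7%). Across the 302 regions, which share the same libraries, the Spearman rho of the PTBP1 and RUNX1 fold enrichments was 0.22. Members were kept only where both targets passed the peak call, which limits the range of both values. The rho therefore describes the members and cannot say how the strengths relate outside them.

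**Figure D1:**
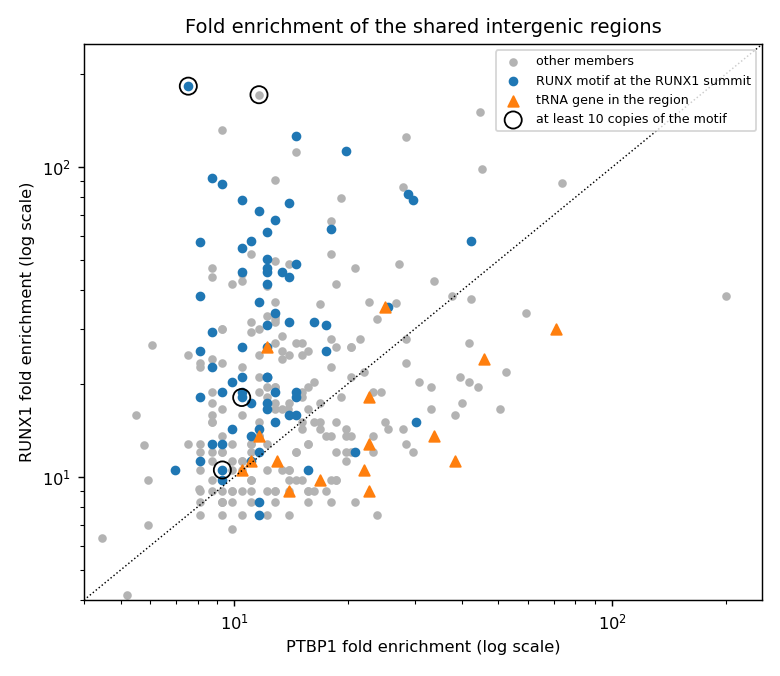
Fold enrichment of PTBP1 (x axis, log scale) and RUNX1 (y axis, log scale) in the 302 shared intergenic regions, 1 point per region. Blue points have a RUNX word at the RUNX1 summit, orange triangles hold a tRNA gene with or without the word, black circles mark regions with at least 10 copies of the word, and the dotted line marks equal values; 197 regions lie above the line, and 11 of the 16 tRNA regions lie below it.

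Most members held 1 peak of each list (295 of 302), and the other 7 held 3 peaks. The median width was 904 bases (range 306 to 7513). The strongest PTBP1 and RUNX1 summits lay a median of 79.5 bases apart (95% interval of the median 63 to 90). They were at most 50 bases apart in 120 members, at most 200 bases apart in 238, and at the same base in 18. The background was raised above 1.5 times the usual level under 13 members, 5 of them on chromosome 1.

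The member with the highest PTBP1 value lay at chr21:6368786-6372882, with a PTBP1 fold enrichment of 200.6 (344 fragments) and a RUNX1 fold enrichment of 38.3 (50 fragments). Its nearest annotated gene was a Y_RNA copy 2731 bases away. No repeat or mappability annotation was used here, so whether this sequence is duplicated in the genome was not checked, and its value is read with that limit. The next was at chr19:13846181-13848104, 3253 bases from MIR23AHG, the host transcript of a microRNA cluster, and 15174 bases from the TSS of NANOS3. There PTBP1 reached 73.8 and RUNX1 88.7, so this region also had the highest value of the weaker target among all members. The region at chr17:49191843-49193293, 17697 bases from the TSS of ABI3, reached 70.9 for PTBP1 and 30.1 for RUNX1. The PALM region (chr19:703380-704583) had 59.3 and 33.8, and the RABL2A region (chr2:113603049-113604354) 52.3 and 21.8. All 5 were strong for PTBP1 with RUNX1 above its own median in the members.

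Of the 5 strongest RUNX1 members, 3 were below the PTBP1 median of the members. The region at chr7:102016-103398, 89514 bases from the TSS of FAM20C, had a RUNX1 fold enrichment of 182.7 (242 fragments) and a PTBP1 fold enrichment of 7.56 (12 fragments). The region at chr1:9410251-9411304, nearest to SPSB1, had 171.4 for RUNX1 and 11.6 for PTBP1. The UACA region (chr15:70491522-70493727) had 131.6 and 9.30. The SORL1 region (chr11:121416733-121417855) had 126.3 and 14.5. The highest PTBP1 value of the 5 was at chr5:1311035-1315719, 18052 bases upstream of the TSS of TERT, the catalytic subunit of telomerase, where RUNX1 reached 151.1 and PTBP1 44.8, with both strongest summits at the same base.

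Strong signal of both targets was found at 2 further regions. At chr1:39933657-39935061, nearest to MFSD2A, PTBP1 had 45.3 and RUNX1 98.4, but the PTBP1 background there was 5.93 fragments, above the usual 0.7202, and the RUNX1 background 2.72, above the usual 0.330. At chr17:78592201-78593058, nearest to DNAH17, a dynein heavy chain gene, the values were 42.4 and 57.9, the summits were at the same base, and both carried a RUNX word.

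The RUNX word was found at more member summits than in their flanks. It lay within 50 bases of the RUNX1 summit in 74 of 302 members, or 24.5% (95% Wilson interval 19.99 to 29.7), and in the window 500 bases to the left in 20, or 6.62% (4.33 to 10.0). Of the members that had the word in only 1 of the windows, 63 had it at the summit and 9 in the flank (exact sign test, two-sided, adjusted p = 5.44e-10 over 26 tests). The right flank held it in 8.94%, and a grid of windows of the same length over hg38 in 7.75% (2276 of 29368). Since the median member was 904 bases wide, many flanks lay inside or near the region.

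PTBP1 summits of the members carried the RUNX word too. It was found at 53 of 302, or 17.5% (13.7 to 22.2), against 6.62% to the left, with 49 members having it at the summit alone and 16 in the flank alone (exact sign test, adjusted p = 0.00012). The right flank held it in 9.60% (exact sign test against that flank, adjusted p = 0.0104). This test was added after the data were seen. The word lay at both summits in 34 members, at the RUNX1 summit alone in 40, at the PTBP1 summit alone in 19 (6.29%) and at neither in 209. Most of the 53 PTBP1 summits with the word thus belonged to members that also had it at the RUNX1 summit. The windows overlap wherever the summits are close, so the counts at the 2 summits are not separate evidence.

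The share fell off with distance from the RUNX1 summit. It was 15.9% and 16.6% in the windows centred 100 bases to the left and right, and 11.6% and 9.60% at 200 bases. Around the PTBP1 summit the profile was flatter, with 15.2% and 14.9% at 100 bases and 12.6% and 14.2% at 200 bases.

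**Figure D2:**
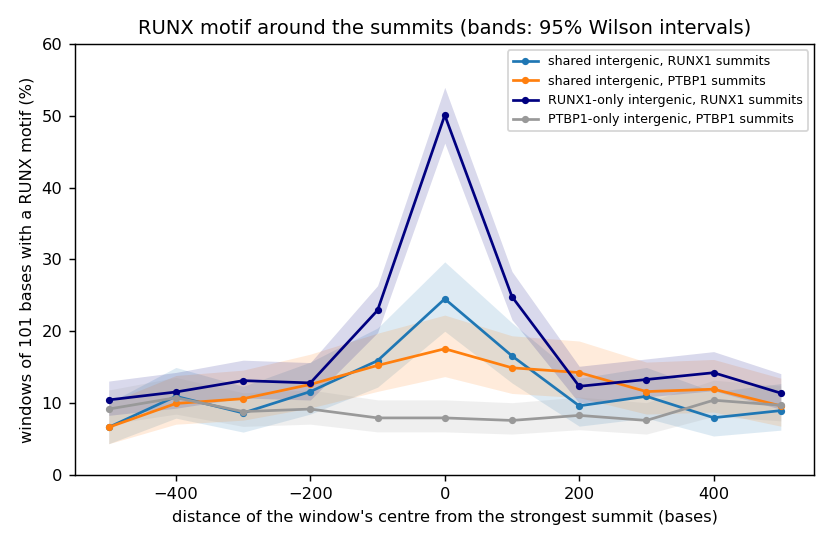
Share of windows of 101 bases with a RUNX word (y axis, %) by distance of the window's centre from the strongest summit (x axis, bases), with 95% Wilson bands. In shared intergenic regions the share was 24.5% at RUNX1 summits and 17.5% at PTBP1 summits, in RUNX1-only intergenic regions it reached 50.1%, and at PTBP1-only intergenic summits it was 7.92%.

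The members stood between the classes of intergenic regions with a single target. RUNX1-only intergenic regions had the word at 50.1% of RUNX1 summits (317 of 633), more than the 24.5% of the members (Fisher's exact test, two-sided, adjusted p = 1.59e-12). PTBP1-only intergenic regions had it at 7.92% of PTBP1 summits (45 of 568), fewer than the 17.5% of the members (Fisher's exact test, adjusted p = 0.000105). Members were chosen for a RUNX1 peak beside the PTBP1 peak, and PTBP1-only regions for its absence. The difference at PTBP1 summits can follow from that rule. In the PTBP1-only regions the flank share was 9.15%, above that at the summit. The regions with a single target were also weaker than the members. The median PTBP1 fold enrichment was 9.30 in PTBP1-only regions and 12.8 in members. For RUNX1 it was 14.3 in RUNX1-only regions and 17.3 in members. No comparison between these classes was matched for strength.

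Base composition differed between these classes, so the shares were also read within ranges of GC content, with no test. The median GC content at the RUNX1 summit was 56.9% in members and 50.5% in RUNX1-only regions. Below 50% GC the word was at 23.5% of member and 53.7% of RUNX1-only summits, from 50% to 60% GC at 25.7% and 50.8%, and from 60% GC at 24.1% and 36.3%. At PTBP1 summits the members had 20.7%, 19.6% and 13.3% in those ranges, and PTBP1-only regions 10.7%, 6.41% and 7.56%. The order of the classes was the same in each range.

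Among shared regions, the word was more frequent at intergenic than at TSS summits. It was at 11.4% of RUNX1 summits of shared regions at a TSS (369 of 3239; Fisher's exact test against the members, adjusted p = 8.76e-09). At PTBP1 summits the shares were 17.5% in members and 7.81% at a TSS (Fisher's exact test, adjusted p = 7.59e-07). Shared regions in gene bodies had the word at 21.3% of RUNX1 summits (18.9 to 23.9), and a difference from the members was not detected (Fisher's exact test, adjusted p = 0.342).

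**Figure D3:**
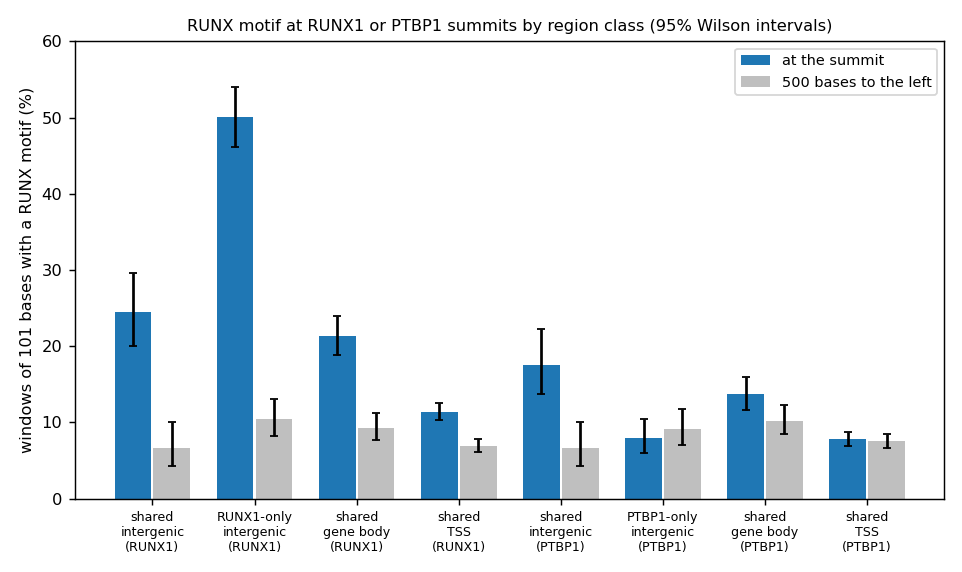
Share of windows of 101 bases with a RUNX word (y axis, %) at the summit (blue) and 500 bases to its left (grey), by region class, with the target whose summit was used in brackets and 95% Wilson intervals. The members had 24.5% at RUNX1 summits against 6.62% in the flank, and the PTBP1-only intergenic regions had 7.92% against 9.15%.

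Members with the word at the RUNX1 summit had a median RUNX1 fold enrichment of 25.9, and those without it 15.0. For PTBP1 the medians were 12.2 and 13.6. RUNX1 was above its median over the members in 51 of 74 regions with the word and in 95 of 228 without it. PTBP1 was above its own in 22 of 74 and 120 of 228. These are descriptions, since fold enrichment belongs to the calls that chose the members.

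In 4 members the word was repeated at least 10 times, while no other member had more than 7 copies. The 2 strongest RUNX1 members were among them. The FAM20C region held 18 copies within 474 bases, and the SPSB1 region 25 within 886 bases. The other 2 were moderate: the PPP6R2 region (chr22:50338111-50339600) held 94 copies with a RUNX1 fold enrichment of 18.045, and the ERMARD region (chr6:169804619-169807052) 48 copies with 10.5. The 150 bases richest in copies are shown for the first pair, on the plus strand with the words in capitals.
SPSB1 (chr1:9411149-9411298): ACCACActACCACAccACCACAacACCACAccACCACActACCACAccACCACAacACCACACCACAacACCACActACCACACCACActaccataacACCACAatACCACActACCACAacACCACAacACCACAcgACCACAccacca
FAM20C (chr7:103048-103197): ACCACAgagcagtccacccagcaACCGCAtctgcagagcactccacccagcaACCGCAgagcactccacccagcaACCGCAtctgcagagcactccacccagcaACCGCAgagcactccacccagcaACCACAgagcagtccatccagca

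The SPSB1 stretch is a nearly unbroken run of the word, and the FAM20C stretch repeats it at near-regular spacing. At the SPSB1 region the RUNX1 summit lay 64 bases from the nearest copy, and at the FAM20C region 9 bases. Arrays of at least 10 copies were also found in 11 of 633 RUNX1-only and 1 of 568 PTBP1-only intergenic regions. Without such regions the word occurred 1.37 times per kb in members, 0.979 times in the PTBP1-only class and 2.75 times in the RUNX1-only class.

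Of 8 other motifs sought at the RUNX1 summits, only the GC box was called. The GC box, GGGCGG on either strand, is the site of the SP and KLF factors. It lay at 49 member summits (16.2%) and in 20 left flanks (6.62%), with 45 regions having it at the summit alone and 16 in the flank alone (exact sign test, adjusted p = 0.000573). The test did not account for base composition. In the word scan below, the GC-rich word CGGGGC was also more frequent at RUNX1 summits (36 at the summit alone, 10 in the left flank alone). The ETS word CGGAAG was at 6.62% of summits and 3.31% of flanks (exact sign test, adjusted p = 0.151). E-box words (CACGTG) were at 2.32% and 0.331% (exact sign test, adjusted p = 0.122). The remaining words differ in length, which changes how often each can occur, and their shares over the genome grid were not counted. The AP-1 word TGANTCA was at 3.64% of summits and the C/EBP word TTGCNNAA at 4.30%. The word AGATAA of the GATA factors was at 3.97%. The PU.1 word GAGGAAGT and the CTCF motif were each at 0.993%. None of these was called, with exact sign test adjusted p-values from 0.485 to 1.

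Pyrimidine runs, the kind of sequence PTBP1 binds in RNA, were not more frequent at PTBP1 summits. A run of at least 12 C or T bases, on either strand, lay at 46 member summits (15.2%) and in 47 left flanks (15.6%), with 39 and 40 regions having it in 1 window alone (exact sign test, adjusted p = 1).

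A scan of all 2080 words of 6 bases, added after the data were seen, was made against the same flanks. At RUNX1 summits 18 words (0.865%) were more frequent and 12 (0.577%) less frequent than in the left flank. The RUNX word ACCACA had the smallest p, present at the summit alone in 48 members and in the flank alone in 8 (exact sign test, adjusted p = 5.94e-05). At PTBP1 summits 9 words (0.433%) were more and 16 (0.769%) less frequent, with CCACAG first among the former, at 56 against 13 members (exact sign test, adjusted p = 0.000246). AAAATA was the first of the less frequent words at both. Most of this scan rested on the side of the flank: against the right flank only ACCACA and CCGCCC stayed at RUNX1 summits, and no word at PTBP1 summits.

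CpG-rich windows were more frequent at RUNX1 summits of the members than of RUNX1-only regions. They were not counted in the other shared regions. With a GC content of at least 50% and an observed/expected CpG ratio of at least 0.6, 22.2% of RUNX1 summits qualified (67 of 302), against 6.95% in RUNX1-only intergenic regions (Fisher's exact test, adjusted p = 9.17e-10). At PTBP1 summits 18.2% qualified (14.3 to 22.95), against 15.8% in PTBP1-only regions (13.1 to 19.1), a difference that was not detected (Fisher's exact test, adjusted p = 0.485).

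The members lay farther from coding genes than PTBP1-only regions. The PTBP1 summit was within 10 kb of a protein-coding TSS in 25.2% of members and 43.8% of PTBP1-only regions (Fisher's exact test, adjusted p = 1.98e-07). RUNX1 summits were within that distance in 25.2% of members and 20.2% of RUNX1-only regions (Fisher's exact test, adjusted p = 0.148). The median distance from the RUNX1 summit was 22681 bases in members and 36595 in RUNX1-only regions. Of the members, 256 (84.8%) lay within 100 kb of a coding TSS, and 208 (68.9%) lay upstream of the nearest one. The location rule left out regions inside genes, and so the sequence just downstream of each TSS. An upstream majority can follow from that rule, and the side was not counted in the other classes.

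Members made up 6.64% of all shared regions. The counts were 51 of 556 shared regions on chromosome 1, 29 of 381 on chromosome 17 and 27 of 455 on chromosome 19. Members were found on 23 chromosomes and not on chromosome Y, which held no shared region. Of them, 17.2% lay within 2 Mb of a chromosome end, against 37.5% of PTBP1-only regions (Fisher's exact test, adjusted p = 1.76e-09) and 5.85% of RUNX1-only regions (Fisher's exact test, adjusted p = 4.73e-07). These tests were added after the data were seen and counted neighbouring regions separately. Within 2 Mb of the start of chromosome 5 lay 10 members. Between 39 and 44 Mb on chromosome 1 lay 11 members (3.64%), 83 PTBP1-only regions (14.6%) and 2 RUNX1-only regions (0.316%).

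**Figure D4:**
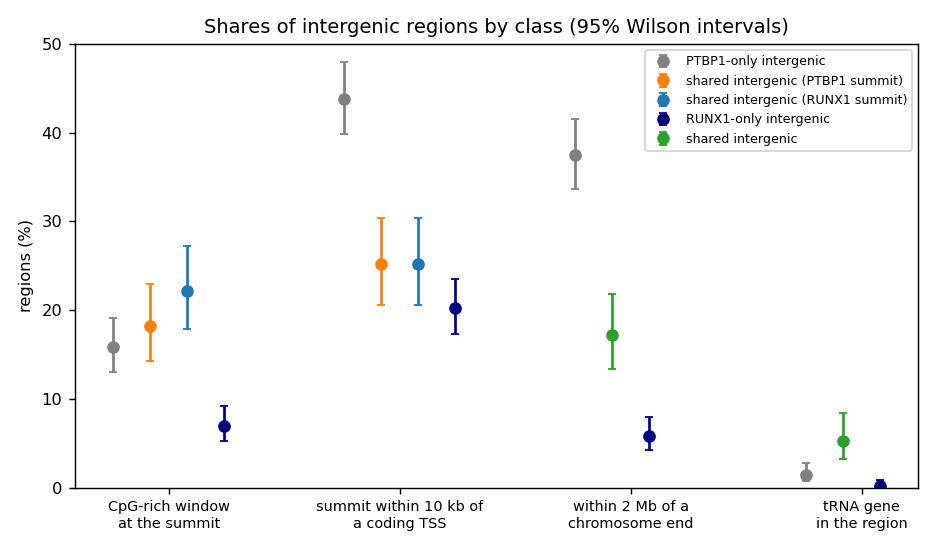
Share of intergenic regions (y axis, %) with a CpG-rich summit window, a summit within 10 kb of a protein-coding TSS, a place within 2 Mb of a chromosome end, or a tRNA gene, by class, with 95% Wilson intervals. For the first pair of features the members are shown at PTBP1 summits (orange) and RUNX1 summits (blue), and otherwise as regions (green); tRNA genes were in 5.30% of members, 1.41% of PTBP1-only and 0.158% of RUNX1-only regions.

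The label intergenic depended on the annotation. GENCODE v44 holds no nuclear tRNA gene among its gene entries, and 71 of the 302 members (23.5%) overlapped a gene of RefSeq (GRCh38.p14). In 50 it was a long noncoding RNA, in 16 a tRNA gene and in 7 a protein-coding gene.

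tRNA genes are short genes read by RNA polymerase III from promoter elements inside the gene, the A box and the B box. They lay in 16 members (5.30%), in 8 PTBP1-only regions (1.41%; Fisher's exact test, adjusted p = 0.00308) and in 1 RUNX1-only region (0.158%; Fisher's exact test, adjusted p = 4.73e-07). The comparison was made after the data were seen, and members were wider than the regions of either other class, with medians of 904, 493 and 528 bases. With a summit within 500 bases of a tRNA gene in place of an overlap, the shares were 4.97%, 1.94% and 0.158%. Both differences were still called (Fisher's exact test, adjusted p = 0.0363 against PTBP1-only and 1.12e-06 against RUNX1-only regions). A member could meet this rule at the summit of either target and the other regions at a single summit, so it gave members more chances. The 16 members held 21 of the 443 RefSeq tRNA genes, while shared regions of any location overlapped 83 (18.7%). A tRNA gene lay in 34 of 3239 shared regions at a TSS (1.05%) and in 6 of 1009 in gene bodies (0.595%), which were not tested against the members.

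The genes below are shown on the plus strand, with the B box in capitals. It was sought on both strands as GTTCGANNC, GTTCAANNC, GATCGANNC or GATCAANNC, which were found in 94.1% of the 443 tRNA genes and in 2.89% of windows of 72 bases on a grid over hg38. These genes were picked after their values were seen.
TRQ-TTG1-1 (chr17:49192528-49192599): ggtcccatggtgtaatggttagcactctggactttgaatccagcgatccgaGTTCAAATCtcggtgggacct
TRL-CAA4-1 (chr1:248873855-248873960): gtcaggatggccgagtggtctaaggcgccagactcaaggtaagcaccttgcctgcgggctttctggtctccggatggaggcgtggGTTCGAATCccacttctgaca
TRX-CAT1-8 (chr17:82494721-82494792): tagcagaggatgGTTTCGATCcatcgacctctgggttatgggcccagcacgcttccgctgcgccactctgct
TRI-TAT2-1 (chr2:42810536-42810628): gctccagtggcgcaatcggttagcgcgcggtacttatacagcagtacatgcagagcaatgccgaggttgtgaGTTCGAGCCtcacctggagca

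PTBP1 tended to be the stronger target at the tRNA members. Its median fold enrichment there was 22.4 (range 10.5 to 70.9), against 12.8 in the other 286 members, and the RUNX1 median was 12.04 (range 9.02 to 35.3), against 17.3. PTBP1 was the higher value in 11 of 16 tRNA members and in 94 of the 286 others. The region of TRQ-TTG1-1, a glutamine tRNA gene, had 70.9 for PTBP1 and 30.1 for RUNX1, with summits 154 and 115 bases from the gene. At the leucine tRNA gene TRL-CAA4-1 both summits fell inside the gene, and the values were 45.9 and 24.1. The region of TRI-TAT2-1, an isoleucine tRNA gene, was stronger for RUNX1 (35.3) than for PTBP1 (24.998). Its PTBP1 and RUNX1 summits were 307 and 298 bases from the gene. The distances reached 1129 bases for PTBP1 and 1108 bases for RUNX1, at TRV-TAC3-1. A RUNX word was at the RUNX1 summit in 2 of the 16 and at the PTBP1 summit in 4 of the 16. The background was raised at 1 of the regions, that of TRL-CAG2-1 and TRL-CAG2-2.

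Genes of hematopoiesis lay beside few of the members. Of 31 hematopoietic transcription factors, 3 were the nearest coding gene of a member (9.68%), and so were 1 of 13 KMT2A fusion targets (7.69%), 2 of 17 myeloid receptors and surface proteins (11.8%), 1 of 14 splicing regulators (7.14%) and 0 of 23 glycolysis genes. Over all 20033 protein-coding genes the share was 1.34%. The counts are small, the room between genes was not taken into account, and no list was tested.

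The region nearest to HOXA7, a homeobox gene, lay at chr7:27160931-27161876, 562 bases from HOXA9. It was weak, with 11.6 for PTBP1 and 7.52 for RUNX1 (19 and 9 fragments), its summits were 407 bases apart, and the RUNX1 window above carries the TGCGGT form of the word. The CSF3R region (chr1:36486556-36486988), 3418 bases from the TSS of the granulocyte colony-stimulating factor receptor, had 9.30 and 8.27 and no word in the whole region. The CSF2RA region (chrX:1249210-1250296), beside a subunit of the GM-CSF receptor, had 12.2 and 19.5.

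GFI1 encodes a transcriptional repressor of myeloid differentiation, and its region (chr1:92459771-92460824) had 15.7 for PTBP1 and 19.5 for RUNX1, with a RUNX word at the PTBP1 summit and none at the RUNX1 summit. The region nearest to CEBPA, a granulocytic transcription factor, lay 33974 bases from its TSS (chr19:33268513-33269209) and had 9.30 and 9.77. The RUNX3 region (chr1:25033410-25034778), 68819 bases from the TSS of a paralog of RUNX1, had 10.5 for PTBP1 and 45.1 for RUNX1, the highest RUNX1 value beside a listed gene. The region nearest to SRSF3, a splicing factor gene, had 9.88 and 14.3 (chr6:36623574-36624354) with the word at the RUNX1 summit. PTBP1 was between 9.30 and 15.7 at all 7 of these regions.

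The location rule cut through similar regions. Just inside it, the region nearest to RILPL2 (chr12:123442855-123443270) lay 1003 bases from the pseudogene COPS5P2 and had 12.8 for PTBP1 and 15.0 for RUNX1. The SORL1 region was 1019 bases and the ZNF267 region (chr16:31869650-31870089; 15.7 and 12.8) 1035 bases from the nearest TSS. Just outside it, chr16:30903650-30904365 overlapped CTF2P by 18 bases (14.5 and 8.27), chr19:47743117-47743794 overlapped EHD2 by 18 bases (12.2 and 16.5), and chr9:136618149-136620746 lay 968 bases from the TSS of LINC01451 (35.5 and 70.7).

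The members with the most peaks held 3 each. They included the TERT region, a region nearest to DUSP8 (chr11:1546229-1548585; PTBP1 20.3 and RUNX1 13.5) and 1 nearest to EDN2 (chr1:41431187-41433654; 15.7 and 12.8).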

How the data were processed

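Chromatin of MOLM-13 cells was profiled in 13 libraries, and the 2 peak lists deposited, for PTBP1 (9370 peaks) and RUNX1 (7688 peaks), were used. The authors mapped paired reads to hg38 with Bowtie2, removed duplicates and called peaks with MACS3. The q-value threshold in the row names of the deposited lists is 1e-07. They were taken to be CUT&Tag, the assay for which the methods describe peak calling, and any pooling of replicates is not given in the sources used here. The deposited columns are a fold enrichment, a ratio of pileup to background, the −log10 p-value and −log10 q-value of each summit, a score derived from the deposited q-value, and positions. Fold enrichment and −log10 p were solved together for the fragment pileup and background (largest difference 0.00134 on the −log10 scale). Library totals were not used, so the pileups are the measure of depth, and the higher PTBP1 background raised the number of fragments a call required.

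Words were sought within 50 bases of the strongest summit on hg38. Two-sided exact sign tests compared summits with flanks 500 bases away and two-sided Fisher's exact tests compared classes, with Benjamini-Hochberg adjustment over 26 tests, 8 of them added after the data were seen. The word scan was adjusted over 2080 words. Neighbouring regions are not independent, and p-values describe these lists, not cultures. Members and lists were chosen with earlier results of these data known. Named regions were the 5 highest by PTBP1, by RUNX1 and by the smaller fold enrichment, up to 15 nearest to a listed gene within 100 kb, 3 on each side of the location rule and 3 with the most peaks. tRNA genes came from RefSeq (GRCh38.p14), whose 35116 promoter sequences all equalled hg38 at their positions. Alternatives covered the word, window, flank, annotation, significance, summit distance, background, spacing and repeats. Procedures were tested on simulated data. Python 3.11.15, numpy, pandas, pysam and scipy were used.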

Additional observations from a re-analysis of the deposited data

Results flagged for a closer look

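The difference between summit and flank in the RUNX word differed between classes at PTBP1 summits. Of regions with the word in only 1 of the 2 windows, 49 of 65 members (75.4%) had it at the summit, against 44 of 95 PTBP1-only intergenic regions (46.3%; Fisher's exact test of the difference, adjusted p = 0.000618). The comparison was made after the data were seen. Members, unlike PTBP1-only regions, were chosen for a RUNX1 peak, so the difference can follow from that rule. Without regions within 5 kb of any TSS the shares were 76.7% and 55.8%, and the difference was no longer called (Fisher's exact test, adjusted p = 0.0941).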

How the results depend on the processing

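No paired analysis was possible because each peak list is a single list per target with no replicate, and no replicate could be left out for the same reason. Of 166 alternative values, 151 kept their direction and side of the threshold, or stayed within 1.5 times a count. The RUNX word results against flanks, RUNX1-only, PTBP1-only and TSS regions did so under every alternative tried, and so did the tRNA, chromosome-end and GC box results. Counting protein-coding genes alone as genes gave 611 members instead of 302. With the flank to the right, called words fell to 2 more and 0 less frequent at RUNX1 summits and to 0 and 0 at PTBP1 summits, and the ETS word was called (difference 4.30 points). Windows of 100 bases either side called the ETS word (5.63 points) and the CpG difference from PTBP1-only regions (5.94 points), and turned the uncalled GATA difference to -0.331 points. The summit preference of members against RUNX1-only regions, not called in the main setting, was called with the wider window (-10.5 points) and with the right flank (-12.6 points), and turned to 0.311 points without regions within 5 kb of a TSS. That setting also turned the uncalled CpG difference from PTBP1-only regions to -1.12 points and ended the call at PTBP1 summits (21.0 points). A distance of 50 kb called the difference from RUNX1-only regions (9.49 points). The causes were not tested. Library depth was not used, so its effect on these results was not tested.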
